A study of Homo sapiens with 6 samples.

Results

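The comparison described here set U373 cells that carried a syk construct and had received ethanol and PonA, at day 2, against U373 cells with the same construct and no treatment, also at day 2. It was chosen by these 2 sample labels and rests on 2 of the 6 arrays of the series, 1 array a side. U373 is a human glioblastoma line, grown in RPMI with fetal calf serum. PonA is ponasterone A, an ecdysteroid used here at 10 µM and given with ethanol, and the labels give a range of 6 to 48 hours of induction for the series without the hours behind each array. Both groups carried the construct, so the comparison does not show what transfection did. The untreated cells received no ethanol, so PonA and its solvent cannot be told apart at day 2. The labels do not say whether the transfected cells were 1 clone or a pool, which promoter drove the construct beyond its being ecdysone-inducible, or whether the cultures were independent. The other arrays used for reading the values were PonA with ethanol, ethanol alone and no treatment in syk-transfected cells at day 1, and untransfected untreated cells at day 1.

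Ecdysone-inducible systems rest on an insect hormone receptor that mammalian cells lack: when an ecdysteroid binds it, the receptor pairs with RXR, a nuclear receptor of the host, and switches on a gene placed behind its binding sites. SYK is a cytoplasmic tyrosine kinase that couples immune receptors to calcium, protein kinase C and MAP kinase signalling. Proliferating cells build up the transcripts of the mitotic machinery in G2 and those of the replication machinery from late G1 into S phase, and cells that leave the cycle lower both.

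The values are MAS5 signals, a brightness per probe set on a linear scale that depends on the probe set as well as on the transcript, so no gene's signal is set against another gene's. Each array was floored at its 40th percentile, which was 22.7 for the PonA array and 23.2 for the untreated array. A difference is given on the log2 scale, PonA minus untreated, after that floor. Where 1 of the signals lay under the floor, the fold is a lower bound and is written as at least that size. With 1 array a side there is no replicate check and no p-value, and 2-fold is used as a rule of size only. The 2 arrays had the same trimmed mean, 150.1, and a Pearson correlation of 0.937 across 7080 probe sets above both floors. The 3' to 5' signal ratio, a sign of RNA length, was 1.04 on the PonA array and 0.946 on the untreated array for GAPDH, and 1.20 and 1.21 for beta-actin, against 0.960 to 0.987 for beta-actin on the arrays of day 1. The spike-in controls had a geometric mean of 352 on the PonA array and 405 on the untreated array, within the 157 to 501 of all 6 arrays.

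SYK was read by 3 probe sets. The brightest of them under PonA gave 72.5 in PonA-treated cells and 20.01, under the floor, in untreated cells, and was thus at least 3.12-fold higher with PonA. The second gave 35.2 in PonA-treated cells and 22.0, under the floor, in untreated cells, at least 1.52-fold higher. It had been brighter on the arrays of day 1, at 56.3 with PonA, 64.1 with ethanol and 73.1 untreated. The third lay under the floor on both arrays, at 3.71 with PonA and 4.13 untreated. RXRA, the receptor partner of such systems, differed little, with 739 against 713 and 239 against 266 on its probe sets, PonA against untreated. RXRB likewise gave 213 against 226 and 78.4 against 74.7. Markers of astroglia, the lineage of the line, were above the floor on both arrays for 8 of 9 genes, with GFAP at 229 in PonA-treated and 221 in untreated cells and VIM at 4919 and 5429.8, while AQP4 lay under the floor on both. Their summed signal was 10676 with PonA and 10406 untreated. Of 8 haematopoietic markers 3 were above the floor on both arrays, CD68 with 166 in PonA-treated and 145 in untreated cells, CD3E with 58.7 and 60.7 and LCP1 with 36.0 and 37.9, while PTPRC, CD79A, CD79B and CD14 were under it on both. Of 5 epithelial markers 3 were above the floor with PonA and 2 untreated: KRT8 gave 427 and 486, KRT18 49.95 and 82.3, and CDH1 33.7 and 20.6, while EPCAM and KRT19 were under it on both. The summed signals were 296 with PonA and 271 untreated for the haematopoietic markers and 522 and 597 for the epithelial ones, and their part in the differences was not tested.

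Of 12558 probe sets, 4568 lay under both floors of day 2 and 7990 were measured. In 696 of these the signals stood 2-fold or more apart, higher with PonA in 4.67% of the 7990 and lower in 4.04%, of which 54 and 65 were bounds. At 4-fold the counts were 63 higher and 70 lower, and at 8-fold 13 and 13. The median difference was -0.01, and 51.1% of the probe sets had a negative difference. Taken as genes, with the brightest probe set of each, 5753 of 8226 were measured, of which 264 (4.59%) passed 2-fold upward and 221 (3.84%) downward. The plot of signals on both arrays shows the mitotic genes as a band well under the diagonal, and the genes with the largest positive differences at low untreated signals.

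**Figure D1:**
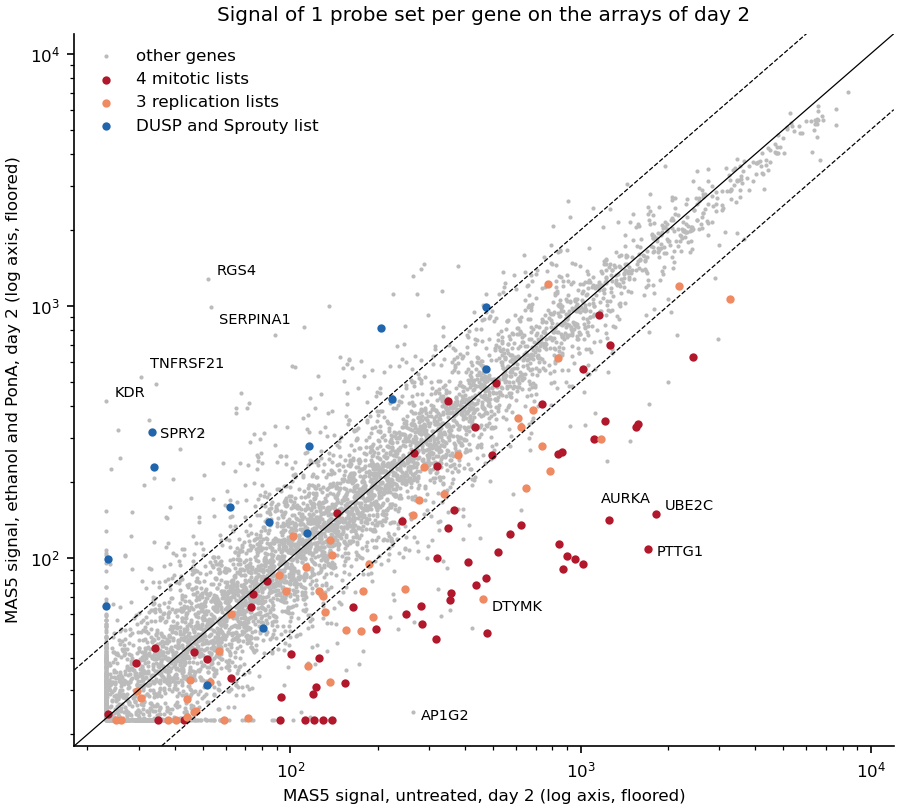
MAS5 signal of 1 probe set per gene in cells with ethanol and PonA (vertical, log axis) against untreated cells (horizontal, log axis) at day 2, each array floored at its 40th percentile, over the 5753 measured genes. The solid line marks equal signal and the dashed lines 2-fold; of the 67 mitotic genes in red 44 lie under the lower dashed line and none above the upper one.

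The same rule of size was applied to pairs of arrays that bear on this comparison. PonA against ethanol at day 1, which shares no array with day 2, had 3.23% of its probe sets at least 2-fold higher and 2.4% lower. PonA against untreated at day 1 had 3.58% higher and 3.12% lower. Without PonA the shares were smaller: 1.04% higher and 1.15% lower for ethanol against untreated at day 1, and 1.04% higher and 2.15% lower for untreated cells at day 2 against untreated cells at day 1, a pair that shares the untreated array of day 2. Among dim probe sets, with under 100 signal units on the brighter array, 5.93% were at least 2-fold apart at day 2 and 3.42% between ethanol and untreated at day 1. Among those of 400 units or more it was 10.5% at day 2, against 0.708% between ethanol and untreated at day 1. Differences at day 2 were thus more frequent among bright than among dim probe sets, and those between ethanol and untreated less frequent.

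**Figure D2:**
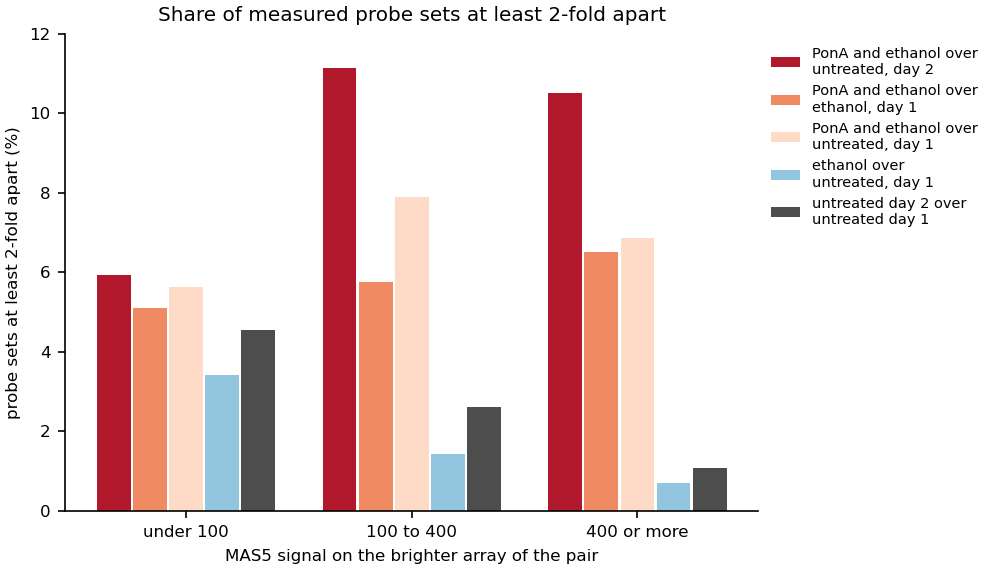
Share of measured probe sets at least 2-fold apart (percent, vertical) in 3 classes of signal on the brighter array, for 5 pairs of arrays. In the class of 400 or more the day 2 comparison reaches 10.5% and ethanol against untreated at day 1 reaches 0.708%.

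Many genes of mitosis were lower in PonA-treated cells. Over 4 lists of mitotic genes (kinases and cyclins, spindle checkpoint and anaphase-promoting complex, kinesins and spindle, centromere and condensin), 67 genes were measured, of which 44 were at least 2-fold lower, 0 were 2-fold higher and 62 had a negative difference. The median was -1.90, beside a median of -0.01 over all 5753 genes, and these 44 made up 19.9% of all lower genes. PTTG1, which encodes securin, the brake on sister chromatid separation, had the lowest difference of any gene, with 108 in PonA-treated cells against 1708 in untreated cells (log2 -3.98). UBE2C, the ubiquitin-conjugating enzyme of the anaphase-promoting complex, had 150.01 against 1824 (-3.60), and its activator CDC20 had 99.4 against 956 (-3.27). All of these signals stayed above the floor on the PonA array.

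The cyclins that drive entry into mitosis, CCNB1 and CCNB2, gave 94.5 and 102 with PonA against 1019.6 and 896 untreated, log2 differences of -3.43 and -3.13. CCNA2, the cyclin of S phase and G2, gave 78.3 against 438 (-2.48). The kinase gene AURKA, whose product builds the spindle poles, gave 142 with PonA and 1257 untreated (-3.15). Second probe sets of 3 of these genes went the same way: CCNB1 by -3.09, CCNA2 by -2.94 and AURKA by -3.60. BUB1, a kinase of the spindle checkpoint, and CDC25C, the phosphatase that starts mitosis, lay under the floor with PonA, at 21.1 and 15.9, against 129 and 120.3 untreated, so they were at least 5.70-fold and at least 5.29-fold lower.

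Checkpoint, kinesin and centromere genes were lower too, the checkpoint and centromere lists by less than the kinesin list. The list median was -2.20 both for the kinases and cyclins and for the kinesins and spindle. It was -0.95 for the centromere list and -0.86 for the checkpoint list, where 9 of 19 genes were at least 2-fold lower. BUB1B, which holds back anaphase until chromosomes are attached, gave 47.6 with PonA and 317 untreated (-2.74), and ESPL1, the separase that cuts cohesin, 72.8 and 359 (-2.30). Among the 14 spindle genes, 13 were at least 2-fold lower. KIF2C, a kinesin that takes microtubules apart at centromeres, gave 90.2 against 873 (-3.27), the spindle assembly factor TPX2 114 against 841 (-2.89), and NDC80, part of the kinetochore, 83.4 against 472 (-2.50), PonA against untreated each time. KIF23, a kinesin of cytokinesis, lay under the floor with PonA at 20.4 against 139.6 untreated, at least 6.14-fold lower. Of the 15 centromere, condensin and cohesin genes 7 were at least 2-fold lower, among them MKI67, the proliferation marker Ki-67, with 55.0 against 284 (-2.37), TOP2A, the topoisomerase that untangles sister chromatids, with 136 against 626 (-2.21), and BIRC5, survivin, with 106 against 518 (-2.29).

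Not all members of these lists were lower. The core subunits of the anaphase-promoting complex CDC16, CDC23 and CDC27 gave 262, 64.1 and 81.1 with PonA against 266, 73.1 and 83.1 untreated, differences of -0.02, -0.19 and -0.03. WEE1, the kinase that restrains CDK1, gave 419 and 348 (0.27), and the cohesin genes SMC3 and STAG2 gave 42.2 and 38.3 with PonA against 46.5 and 29.3 untreated (-0.14 and 0.39). TOP2B, the topoisomerase that non-dividing cells also use, gave 150.3 and 145 (0.05), beside the -2.21 of TOP2A. In bulk RNA, fewer cells in mitosis and less of a transcript per cell cannot be told apart.

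**Figure D3:**
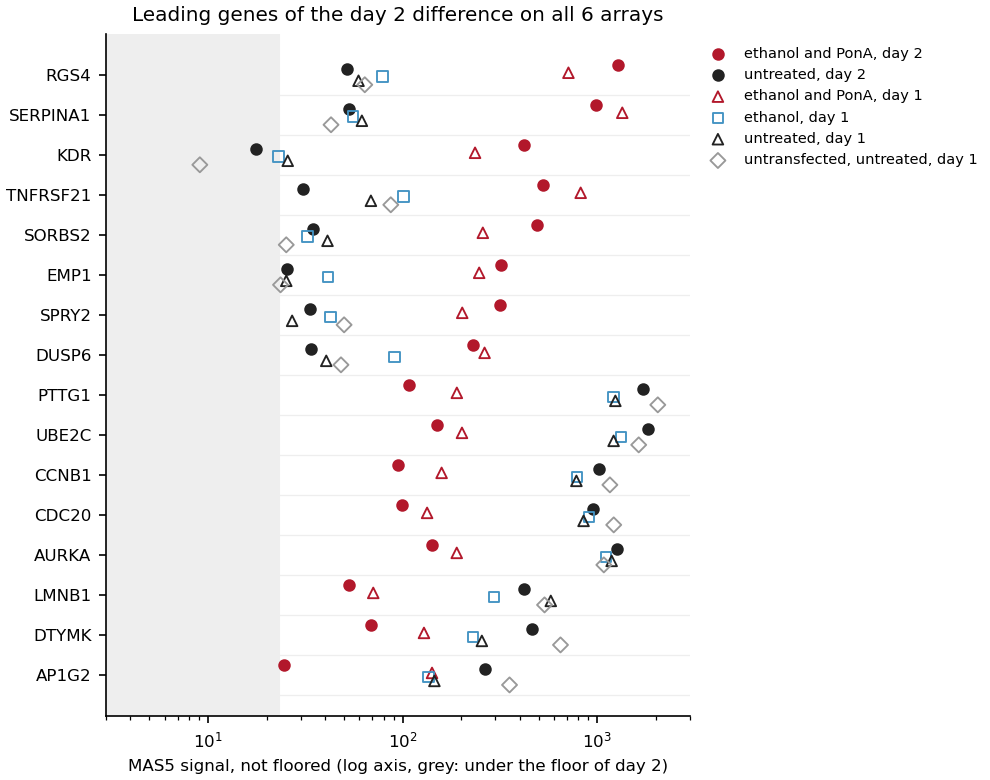
MAS5 signal (horizontal, log axis, not floored) of 16 leading genes on all 6 arrays, 1 point per array, with filled circles for day 2 and open symbols for day 1. RGS4 stands at 1273 with PonA and 52.0 untreated at day 2, PTTG1 at 108 and 1708, and for every gene shown but AP1G2 the PonA array of day 1 lies on the same side of the untreated and ethanol arrays as at day 2.

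Many mitotic genes carry 2 short elements near their start: the cell cycle genes homology region, CHR, read here as TTTGAA, which is known to hold repressing complexes in resting cells, and the CCAAT box, bound by NF-Y. These letters were looked for on both strands in the 250 bases before and 50 bases after each gene start, together with the E2F core TTTCCCG and the cyclic AMP response element TGACGTC. The promoters below, from RefSeq on GRCh38.p14, are shown because they are among the 20 lowest genes and hold different combinations of the motifs; each runs for 200 bases up to the base before the gene start, with matches to the 4 motifs in capitals, on either strand. In CDC20 there are 2 CHR matches, 65 and 178 bases before the start, and 2 CCAAT boxes. In CCNB2 the CHR match lies 29 bases before the start, downstream of 3 CCAAT boxes in this stretch, and in BUB1B 23 bases before it with no CCAAT box. PTTG1 has no CHR match and 3 CCAAT boxes, of which the pair nearest to the start overlaps on opposite strands. DTYMK, a gene of nucleotide synthesis described below, has 2 CCAAT boxes and an E2F core on the opposite strand between them. Not every low gene holds a match: KIF2C, CITED1 and CDC25C had 0 in their windows and are not shown.
CDC20, chr1:43358781-43358980, plus strand: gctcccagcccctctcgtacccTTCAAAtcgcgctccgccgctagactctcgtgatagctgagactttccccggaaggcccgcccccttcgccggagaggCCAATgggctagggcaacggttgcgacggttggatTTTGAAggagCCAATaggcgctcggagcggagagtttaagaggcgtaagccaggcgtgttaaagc
CCNB2, chr15:59104946-59105145, plus strand: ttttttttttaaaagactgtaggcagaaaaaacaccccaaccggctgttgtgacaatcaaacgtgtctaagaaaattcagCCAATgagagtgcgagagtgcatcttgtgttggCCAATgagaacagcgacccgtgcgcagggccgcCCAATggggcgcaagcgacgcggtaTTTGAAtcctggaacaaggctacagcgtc
BUB1B, chr15:40160869-40161068, plus strand: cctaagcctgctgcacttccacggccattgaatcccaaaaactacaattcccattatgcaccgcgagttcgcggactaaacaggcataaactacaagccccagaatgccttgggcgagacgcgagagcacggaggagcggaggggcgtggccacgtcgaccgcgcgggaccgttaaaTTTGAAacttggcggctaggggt
PTTG1, chr5:160421655-160421854, plus strand: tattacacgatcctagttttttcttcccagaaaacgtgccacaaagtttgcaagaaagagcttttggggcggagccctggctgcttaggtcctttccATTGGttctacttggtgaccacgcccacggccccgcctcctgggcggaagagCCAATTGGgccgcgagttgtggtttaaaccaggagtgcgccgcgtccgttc
DTYMK, chr2:241686816-241687015, minus strand: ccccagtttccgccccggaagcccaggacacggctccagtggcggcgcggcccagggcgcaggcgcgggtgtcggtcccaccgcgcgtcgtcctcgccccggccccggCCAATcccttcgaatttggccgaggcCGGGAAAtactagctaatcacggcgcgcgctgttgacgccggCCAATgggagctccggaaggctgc

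Over whole groups, a CHR match stood in 28 of 57 promoters of measured mitotic genes (49.1%), beside 15.4% of all 27305 promoters in the table and 9.78% of the 4736 promoters of measured genes. It stood in 22 of 43 promoters of genes at least 4-fold lower (51.2%), in 45 of 179 of those at least 2-fold lower (25.1%) in 10 of 38 of those at least 4-fold higher (26.3%) and in 29 of 222 of those at least 2-fold higher (13.1%). Within the mitotic lists, 24 of 39 promoters of genes at least 2-fold lower held a CHR match, and 4 of 18 of the others. Outside the mitotic and replication lists, 20 of 126 lower genes held a CHR match (15.9%). A CHR match and a CCAAT box stood together in 22 of the 57 mitotic promoters (38.6%), in 7 of 222 promoters of higher genes (3.15%), in 4.24% of those of measured genes and in 6.08% of all promoters. Replication genes differed in this: 2 of 45 held a CHR match (4.44%), 25 of 45 a CCAAT box (55.6%, beside 37.2% of measured genes and 35.7% of all promoters) and 10 of 45 an E2F core (22.2%, beside 6.52% of measured genes and 4.34% of all promoters). The cyclic AMP response element, whose letters nearly mirror themselves so that 1 place can match on both strands, stood in 6 of 57 mitotic promoters (10.5%), 8.38% of those of all genes at least 2-fold lower, 5.81% of those of measured genes and 3.63% of all promoters. A match describes these letters in this window and is not a binding site.

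Genes of DNA replication were lower too, by less than the mitotic genes. Over 3 lists (origin licensing and the MCM helicase, the replication fork, and deoxynucleotide synthesis), 50 genes were measured, of which 16 were at least 2-fold lower, 0 were 2-fold higher and 47 had a negative difference, with a median of -0.83. DTYMK, the thymidylate kinase, stood apart at 69.1 with PonA against 461 untreated (-2.74). The other enzymes of the thymidine and ribonucleotide routes were grouped more closely: the thymidine kinase TK1 gave 298 against 1173 (-1.98), thymidylate synthase TYMS 1065 against 3270.4 (-1.62), and the ribonucleotide reductase subunits RRM1 and RRM2 75.2 and 51.4 against 248 and 175 (-1.72 and -1.77), PonA against untreated. MTHFD2, a mitochondrial folate enzyme in the same list, went the other way, with 1224 and 769.9 (0.67).

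At the origin, GINS1, a subunit of the complex that activates the helicase, gave 32.2 with PonA and 137 untreated (-2.09), and the helicase subunits MCM7 and MCM4 gave 189 and 37.5 against 651 and 115 (-1.78 and -1.62). The origin recognition subunits ORC1, ORC2, ORC3 and ORC5 differed by -0.09, -0.13, 0.00 and -0.06. At the fork all 22 measured genes had a negative difference and 7 were at least 2-fold lower. FEN1, which trims Okazaki fragments, gave 223 with PonA against 782 untreated (-1.81), RFC5, part of the clamp loader, 58.3 against 193 (-1.73; its second probe set gave 42.5 and 46.3, a difference of -0.12), and POLA2, a subunit of the priming polymerase, 51.7 against 155 (-1.58). LIG1, the ligase of the fork, lay under the floor with PonA at 6.63 against 58.9 untreated, at least 2.59-fold lower.

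Further lists of the cell cycle and chromatin held 2 or 3 lower genes each and 0 higher. FOXM1, the transcription factor of G2 genes, gave 120.1 with PonA and 451 untreated (-1.91), and MYBL2, which acts with it, 41.9 and 86.8 (-1.05). These were the 2 lower genes among 14 measured cell cycle transcription factors, with a list median of -0.25. LMNB1, lamin B1 of the nuclear envelope, was at 53.04 with PonA against 422 untreated (-2.99), and HMGB2, a chromatin protein of dividing cells, at 337 against 1033 (-1.62), 2 of 3 lower genes among 18 measured genes of the nuclear lamina and HMG list, whose median was -0.46. H2AX, a histone variant of the damage response, gave 291 against 1483 (-2.35), 1 of 2 lower genes among 12 measured histone genes. In the repair list 3 of 27 genes were at least 2-fold lower and 0 higher, led by FANCI of the Fanconi anaemia pathway with 58.4 against 219.8 (-1.91). Of 13 G1 cyclins and kinases 2 were lower and 7 had a positive difference, with a median of 0.10. Of 8 CDK inhibitors and pocket proteins 0 were 2-fold higher, too few genes to set apart from the 4.59% over all genes. In this list 2 were lower, CDKN3 with 91.2 against 346 (-1.92) and CDKN2D with 147 against 393 (-1.42). Of 15 p53 targets 0 were 2-fold higher and 2 lower, again too few genes to set apart from the 4.59% and 3.84% over all genes.

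Among the genes that were higher, those with the largest differences belonged to no single list. RGS4, which shuts off G protein signalling, gave 1273 in PonA-treated cells and 52.0 in untreated cells, 24.5-fold higher (log2 4.61), and its second probe set gave 1097 and 59.0 (4.22). SERPINA1, the secreted antitrypsin, gave 988 and 53.3, 18.5-fold higher (4.21). Of 12 measured serpins no other was 2-fold higher, and SERPINB9, an inhibitor of granzyme B, lay under the floor with PonA at 17.4 against 102 untreated, at least 4.48-fold lower. TNFRSF21, death receptor 6, gave 524 with PonA against 30.6 untreated (4.10), while of the other 19 measured members of its family list 1 was 2-fold higher, the ligand TNFSF4, at least 2.55-fold with 59.2 against 4.81. Of 11 RGS genes 1 was lower, RGS12, at 37.99 against 122 (-1.68). Counts this small in the serpin, TNF receptor family and RGS lists cannot be set apart from the shares over all genes, 4.59% higher and 3.84% lower.

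Further leading genes were of varied kinds. SORBS2, an adaptor of actin stress fibres, gave 489 with PonA and 34.6 untreated (3.82), EMP1, an epithelial membrane protein, 321 and 25.5 (3.66), and RCAN2, an inhibitor of calcineurin, 353 and 32.5 (3.44). The untreated signal of EMP1 lay close above the floor of 23.2. SLC5A3, the transporter that brings in myo-inositol, gave 769.9 against 88.2 (3.13), and RIN2, an exchange factor of endosomal RAB5, 995 against 136 (2.87). The second RIN2 probe set differed by less, with 58.9 and 37.4 (0.66). With the mean over all probe sets of the gene, the differences were 3.03 for EMP1, 2.05 for SLC5A3 and 1.77 for RIN2. The RNA-binding proteins IGF2BP3 and SAMD4A gave 316 and 196 with PonA against 49.8 and 31.2 untreated (2.67 and 2.65), and CHST2, which sulphates cell-surface sugars, 208 against 33.9 (2.62).

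Feedback inhibitors of MAP kinase signalling were higher as a group. Of 14 measured genes of the DUSP phosphatase and Sprouty list 8 were 2-fold higher or more, 0 were lower by that much, and the median was 1.17. Over all genes 4.59% were higher and 3.84% lower. SPRY2 and SPRY1, which block receptor tyrosine kinase signalling upstream of ERK, gave 316 and 98.8 with PonA against 33.3 and 23.5 untreated (3.25 and 2.07). The untreated signal of SPRY1 lay just above the floor. DUSP6, the cytoplasmic phosphatase of ERK, gave 229 against 33.8 (2.76), and DUSP1, a nuclear phosphatase of several MAP kinases, 819 against 205 (2.00). DUSP4 gave 64.6 with PonA and 3.17, under the floor, untreated, at least 2.78-fold higher. At day 1 the median of the list was 0.57 for PonA over ethanol, with 6 of the 14 genes 2-fold higher, and 0.07 for ethanol over untreated. Single members were brighter with ethanol alone than untreated: DUSP6 gave 264 with PonA, 90.8 with ethanol and 40.5 untreated, and DUSP1 gave 742, 260.0 and 122. None of the 6 arrays is ethanol alone at day 2.

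Of 13 measured ETS factors 2 were 2-fold higher and 1 lower, too few genes to set apart from the 4.59% higher and 3.84% lower over all genes. ETV5 and ETV4, ETS factors that ERK signalling is known to raise, gave 826 against 111 (2.90) and 53.2 against 15.1 under the floor (at least 2.29-fold higher). ETS1 itself lay under the floor with PonA, at 11.1 against 53.9 untreated, at least 2.37-fold lower. ETV5 was also higher with ethanol alone at day 1, at 605 with PonA, 297 with ethanol and 115 untreated. Among 25 kinases of the cascade 3 were 2-fold higher or more, 0 were lower by that much, and the median was 0.44: MAP4K4 with 450.2 against 67.6 (2.74), MAP2K3, an activator of p38, with 528 against 125 (2.08), and RPS6KA2, a ribosomal S6 kinase under ERK, with 102 against 27.0 (1.92). Of 18 immediate early factors 1 was 2-fold higher, MAFF, with 255 against 92.3 (1.47), and JUN gave 168 against 100.4 (0.75). For 18 genes that count is near the 4.59% higher over all genes. The EGF receptor ligands HBEGF and TGFA gave 271 and 578 with PonA against 41.8 and 237 untreated (2.70 and 1.29), while the ligand NRG1 gave 29.8 against 61.3 (-1.04).

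The VEGF family held KDR and VEGFC, both among the 20 highest genes. KDR, the main VEGF receptor of endothelium, gave 418 in PonA-treated cells and 17.6, under the floor, in untreated cells, at least 18.01-fold higher, and its second probe set gave 59.7 and 8.53, at least 2.57-fold. The ligand VEGFC gave 154 against 4.87 under the floor, at least 6.64-fold higher, PGF 222 against 64.5 (1.79) and VEGFA 2442 against 1101 (1.15). The ligand VEGFB and the receptor FLT1 stood close on both arrays, at 824 and 43.7 with PonA and 790.4 and 45.4 untreated. Of 9 measured members 4 were 2-fold higher or more, beside 4.59% of all genes, 0 were lower by that much, and the median was 0.94. That median was 0.23 when members with an array under the floor were left out, 0.16 with a pseudocount of 16 in place of the floor and 0.29 with the ethanol array of day 1 in place of the untreated array.

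The TGF-beta list held 5 genes at least 2-fold higher and 1 lower among 17, with a median of 0.17. Over all genes 4.59% were higher and 3.84% lower, so the 1 lower gene was near that share. The receptor TGFBR2 gave 207 with PonA and 39.5 untreated (2.39), the ligand TGFB1 1444 and 378 (1.93), and SMAD7, the pathway's inhibitor, 116 and 33.8 (1.78). SMAD3, which carries the signal to the nucleus, gave 105 against 237 (-1.17). In the IGF axis no gene passed 2-fold on its brightest probe set, but 12 of 13 had a positive difference, with a median of 0.35. The largest was 212 against 119 for the adaptor IRS1 (0.84), whose other probe sets above both floors gave 1.09 and 1.12. IGFBP5, an IGF-binding protein, gave 0.67, and its other probe sets above both floors ran between 0.56 and 1.40. Of 29 hypoxia and glycolysis genes 4 were 2-fold higher and 1 lower, the latter again near the share over all genes. The peptide hormone ADM gave 1465 against 288 (2.35), the carbonic anhydrase CA12 335 against 88.3 (1.93) and EPAS1, which encodes the hypoxia factor HIF-2 alpha, 280.4 against 88.3 (1.67), while lactate dehydrogenase LDHA gave 147 against 305 (-1.05).

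**Figure D4:**
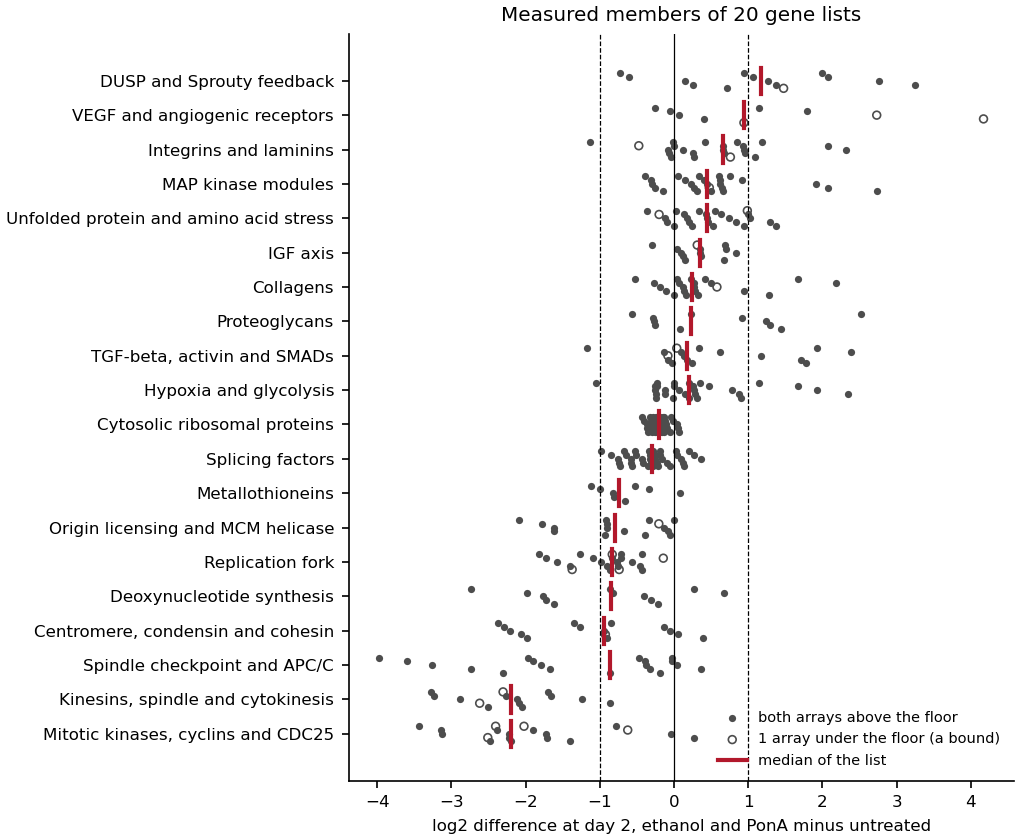
Log2 difference at day 2, ethanol and PonA minus untreated (horizontal), of the measured members of 20 gene lists, 1 point per gene, with open circles where 1 array lay under the floor and a red bar at the list's median. The medians run between 1.17 for the DUSP and Sprouty list and -2.20 for the mitotic kinases and cyclins, and the ribosomal proteins lie within -0.43 and 0.07.

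Several adhesion and matrix genes were higher, in lists to be read beside 4.59% higher and 3.84% lower over all genes. Of 23 integrin and laminin genes 4 were 2-fold higher or more, 1 was lower by that much, and the median was 0.66: ITGA7, a laminin receptor, gave 1397 with PonA against 281 untreated (2.31), LAMB1, a laminin chain, 625 against 148 (2.08), ITGB5 1367 against 643 (1.09) and ITGB3 304 against 134 (1.18). The other ITGB3 probe sets gave differences of 0.04 and 0.44, and the other ITGB5 probe set 0.85. The lower gene was ITGB4, the partner of ITGA6 in hemidesmosomes, at 122 against 267 (-1.13). Among 22 collagens 3 were 2-fold higher and 0 lower, COL13A1 with 105 against 23.2, a value just above the floor (2.18), and the basement membrane chains COL4A6 and COL4A5 with 172 and 169.9 against 54.0 and 70.1 (1.67 and 1.28). Of 11 proteoglycan genes 4 were 2-fold higher, led by the glypican GPC4 with 578 against 101 (2.52), followed by SDC2 (1.44), VCAN (1.29) and PTPRZ1 (1.24). CCN1, a matricellular protein bound by integrins, gave 1119 against 226 (2.31).

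Proteases and the cytoskeleton were mixed. MMP7, matrilysin, was lower with 242 in PonA-treated against 1229.5 in untreated cells (-2.35), and ADAM12 was higher with 173 against 45.4 (1.93). No other of the 20 measured protease genes passed 2-fold on its brightest probe set, so both counts were near the shares over all genes, 4.59% higher and 3.84% lower. For the protease gene MMP14 the brightest probe set differed by 0.35 and another by 1.98. A second ADAM12 probe set gave 31.2 with PonA and 33.7 untreated, so the probe sets disagree about ADAM12. Among 24 contractile genes CALD1, caldesmon, gave 572 against 104 (2.46) and MYH9, non-muscle myosin, 2078 against 804 (1.37), while the myosin light chain kinase MYLK gave 72.2 against 225 (-1.64) and smooth muscle actin ACTA2 45.9 against 95.6 (-1.06).

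Of the genes of the brain's cell types, a few passed 2-fold. SLC1A3, the glial glutamate transporter, was the only one of 13 astroglial genes past 2-fold, with 225 with PonA against 24.0 untreated (3.23). The untreated signal lay just above the floor of 23.2, and a second probe set lay under the floor on both arrays. At day 1 the first probe set gave 193 with PonA, 22.8, under the floor, with ethanol and 38.8 untreated. Among 22 neuronal genes DCLK1, a microtubule-binding kinase, gave 249.6 against 25.97 (3.27) and the adhesion molecule NRCAM 64.1 against 25.9 (1.31), while the growth cone protein GAP43 gave 75.7 against 322 (-2.09). The untreated signals of DCLK1 and NRCAM lay close above the floor, and a second DCLK1 probe set lay under it on both arrays. The list median was 0.00. Counts this small among the 13 astroglial and 22 neuronal genes cannot be set apart from the shares over all genes, 4.59% higher and 3.84% lower. Of 8 neuronal markers 4 were above the floor with PonA and 6 untreated, with summed signals of 3004 and 2007, and their part in these differences was not tested. In the oligodendrocyte and haematopoietic lists, with 5 and 6 measured genes, 0 passed 2-fold, which is too few genes to read against the 4.59% and 3.84% over all genes.

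Among receptors and second messengers, 4 of 25 chemokine, interleukin and receptor genes were 2-fold higher and 0 lower, and all 4 encode receptor chains: IL1RAP gave 559.5 with PonA against 191 untreated (1.55), OSMR 255 against 92.6 (1.46), IL1R1 115 against 47.4 (1.27) and IL6ST, the chain shared by the IL-6 family, 134 against 61.8 (1.12). The list median was -0.12. Of 26 partners of SYK 3 were just past 2-fold, the kinase FYN with 674 against 316 (1.09), the ubiquitin ligase CBLB with 69.3 against 34.2 (1.02) and the RAS activator SOS1 with 60.6 against 30.2 (1.01), and 0 were lower. In the G protein and cyclic nucleotide list of 36 genes 4 were 2-fold higher, led by the anchoring protein AKAP12 with 239 against 67.0 (1.83), and 0 lower. VDR, the vitamin D receptor, gave 68.9 with PonA and 5.57, under the floor, untreated, at least 2.97-fold higher. RARB, a retinoic acid receptor, gave 45.9 with PonA and 144 untreated (-1.65). No other of the 24 measured nuclear receptors passed 2-fold, so both counts were near the shares over all genes, 4.59% higher and 3.84% lower. In the lists named before them, 0 lower genes cannot be set apart from that 3.84%.

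The list of retinoid handling and targets had a low median. Of 8 measured genes 4 were at least 2-fold lower and 1 higher, with a median of -0.73. CRABP2, which carries retinoic acid to its receptors, gave 38.3 with PonA and 115 untreated (-1.59), but 49.7 and 62.3 on a second probe set (-0.33). Lower too were the retinaldehyde reductase DHRS3 with 377 and 1118 (-1.57), the transglutaminase TGM2 with 112 and 298 (-1.41) and PLAAT4 with 121 and 251 (-1.05). ALDH1A3, which makes retinoic acid, went the other way with 252 and 77.4 (1.71). At day 1 the list's median was -0.07 against ethanol, and that of day 2 became -0.24 when the ethanol array of day 1 took the place of the untreated array and -0.05 with a pseudocount of 16 in place of the floor. Of the 8 metallothioneins, zinc-binding proteins whose probe sets share sequence, 7 had a negative difference and 1, MT1X, passed 2-fold with 942 against 2054 (-1.12). Their median of -0.74 became -0.13 when only probe sets whose names mark no shared sequence were used and -0.12 with the untreated array of day 1 in place of that of day 2.

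Of 25 genes of the unfolded protein and amino acid response 3 were 2-fold higher, beside 4.59% of all genes, and 0 lower. In 20 of the 25 the difference was positive, with a median of 0.44. The chaperone HSPA5, BiP, gave 2242 with PonA against 918 untreated (1.29), asparagine synthetase ASNS 407 against 157 (1.38) and the transcription factor CEBPG 194 against 94.9 (1.03). At day 1 ASNS was as bright with ethanol alone, at 345 with PonA, 387 with ethanol and 154 untreated, and so was CEBPG, at 171, 160.3 and 82.8, whereas HSPA5 gave 2017, 1068 and 1169.5. Of 20 heat shock genes 1 passed 2-fold, the small chaperone CRYAB, lower with 736 against 2968 (-2.01). Of 30 interferon-stimulated genes 1 passed it, IFIT1, lower with 35.9 against 155 (-2.11). Both counts are near the 3.84% lower over all genes. In lipid metabolism SCD, the desaturase that makes oleate, gave 237 against 58.5 (2.02). It was the 1 gene of 18 past 2-fold, near the 4.59% higher over all genes. In sterol synthesis DHCR7 and IDI1 gave 1593 and 473 against 640.4 and 203 (1.31 and 1.22), 2 of 14 genes with a list median of -0.04.

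Genes that every cell uses shifted little. Of 45 cytosolic ribosomal protein genes 42 had a negative difference, within -0.43 and 0.07, with a median of -0.21 that was -0.04 after quantile normalization. Of 38 splicing factor genes 30 had a negative difference and 0 passed 2-fold (median -0.30), and of 33 proteasome genes 28 had one and 1 passed it (median -0.24). With the ethanol array of day 1 in place of the untreated array of day 2, the splicing and proteasome medians were -0.03 and 0.01. The subunits of oxidative phosphorylation had a median of -0.13 over 44 genes, with 0 past 2-fold.

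The genes of day 2 were read on the arrays of day 1, which the comparison did not use. Of the 264 genes at least 2-fold higher at day 2, 248 had a positive difference of PonA over ethanol at day 1, 94 were at least 2-fold higher there and 0 were 2-fold lower. These 94 are 35.6% of the day 2 list and 56.0% of the 168 genes that were 2-fold higher over ethanol at day 1. Of 213 lower genes that were also measured over ethanol at day 1, 184 had a negative difference, 81 were at least 2-fold lower and 3 at least 2-fold higher. The 81 are 38.03% of those 213 and 62.8% of the 129 lower genes of day 1. Beside these, all 5753 genes measured at day 2 had a median of 0.04 over ethanol at day 1. Of the 5753, 168 were at least 2-fold higher and 129 at least 2-fold lower there. Over the untreated array of day 1, 113 of 263 higher genes passed 2-fold in the same direction and 1 in the other, and 104 of 216 lower genes in the same direction and 2 in the other. Without PonA, untreated cells of day 2 over those of day 1 had a median of -0.25 over the higher genes and 0.34 over the lower genes, a pair that shares the untreated array of day 2.

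**Figure D5:**
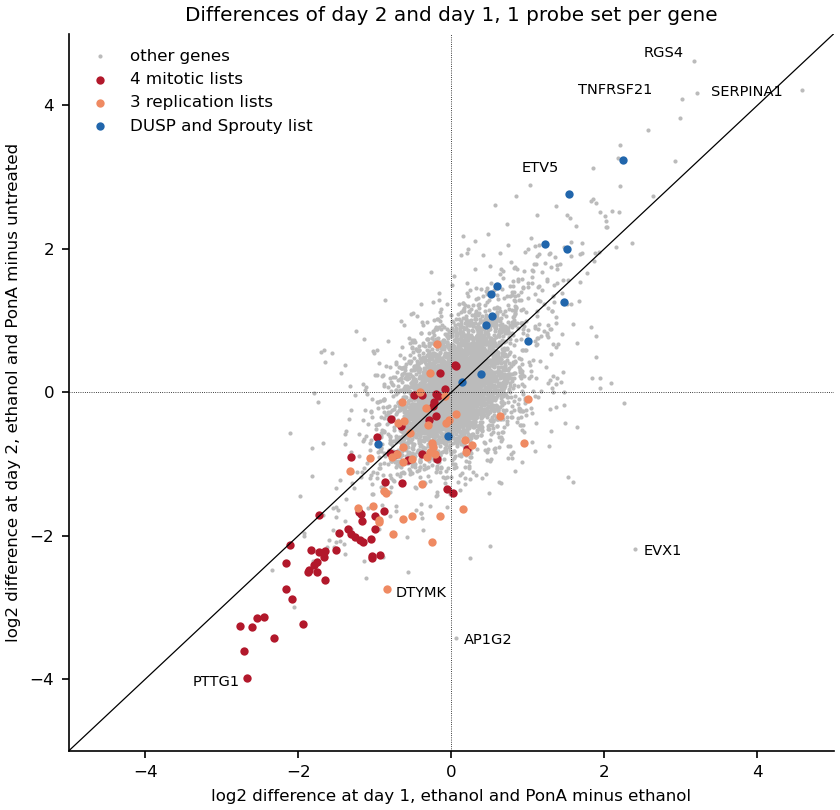
Log2 difference at day 2, ethanol and PonA minus untreated (vertical), against that at day 1, ethanol and PonA minus ethanol (horizontal), 1 point per gene measured in both pairs, which share no array. The diagonal marks equal differences; 52 of the 67 mitotic genes lie under it, and replication genes in orange reach -2.74 at day 2 with DTYMK at -0.84 at day 1.

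The mitotic and replication groups differed in how they stood at day 1. The mitotic median of -1.90 at day 2 went with -1.16 over ethanol and -1.41 over untreated cells at day 1, and 37 of the 67 genes were already 2-fold lower over ethanol there. The replication median of -0.83 at day 2 went with -0.31 over ethanol and -0.45 over untreated cells at day 1, where 4 of the genes were 2-fold lower over ethanol. In the list of deoxynucleotide synthesis the signals summed to 4502 with PonA and 8952 untreated at day 2, and to 4456 with PonA, 6654 with ethanol and 7198 untreated at day 1. The fork list summed to 3326 and 6428 at day 2, and to 3175, 4321 and 4811 at day 1. In both lists the sums of the PonA arrays of the days were close, and the sum of the untreated array of day 2 was the highest among the transfected arrays. A sum leans on the brightest genes of a list and does not describe each member. For DTYMK the signals were 69.1 with PonA and 461 untreated at day 2, against 129 with PonA, 230.2 with ethanol and 255 untreated at day 1.

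Some genes past 2-fold at day 2 stood far from their day 1 values. AP1G2, an adaptor subunit of vesicle coats, gave 24.6 with PonA and 264 untreated at day 2 (-3.42), but 142 with PonA, 136 with ethanol and 146 untreated at day 1. Its second probe set gave 28.9 and 73.0 at day 2 (-1.34), and 40.7, 75.7 and 76.1 at day 1, so that the probe sets disagree about day 1. FGF4, a growth factor of early development, gave 23.5 and 117 at day 2 (-2.31) and 84.9, 71.4 and 51.5 at day 1. EVX1, a homeobox gene, gave 38.1 with PonA and 173 untreated at day 2 (-2.18), and 183 with PonA, 34.6 with ethanol and 122 untreated at day 1, on a probe set whose name ending, _r_at, marks relaxed rules of probe choice. Over untreated cells, PSMA7, a proteasome subunit, and RAPGEF3, an exchange factor that cyclic AMP activates, were 2-fold or more apart in opposite directions at the 2 days. Among the 10 genes farthest from day 1, FGF4, EVX1, VASP, PTPRS and TGDS changed sign over untreated cells too, with less than 2-fold at day 1. PTPRS differed by -1.15 at day 2 and by 0.88, with the untreated signal under the floor, at day 1. TGDS differed by 1.09 and -0.80. PSMA7 gave 24.6 with PonA and 109 untreated at day 2 (-2.14), and 163 with PonA, 114 with ethanol and 36.1 untreated at day 1. RAPGEF3 gave 122 and 28.3 at day 2 (2.10), and 43.6, 35.3 and 93.4 at day 1. Its day 1 difference was -1.10 over untreated cells but 0.31 over ethanol, the same sign as at day 2. VASP, an actin regulator, gave 56.7 with PonA and 10.1, under the floor, untreated at day 2, and 8.88 with PonA, 48.1 with ethanol and 47.2 untreated at day 1. MAP4K4 was higher at both days, with 229 with PonA, 127 with ethanol and 114 untreated at day 1, a log2 difference of 0.85 over ethanol beside 2.74 at day 2.

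Probe sets of the same gene give the only repeat within these arrays, a technical one on the same RNA. Over 1098 pairs of probe sets from 868 genes, all above both floors, the differences between probe sets of a gene had an SD of 0.49 and a median size of 0.25 on the log2 scale. Of 100 pairs whose brightest probe set passed 2-fold, 95 went the same way, 62 passed 2-fold on the other probe set too, and 0 passed it in the opposite direction. Among higher genes 28 of 56 second probe sets passed 2-fold, and among lower genes 34 of 44; the difference was not tested. Among the genes named above, second probe sets stayed under 2-fold for FEN1 (-0.60), TGFB1 (0.85), VEGFA (0.99), FYN (0.53) and CBLB (0.36), beside ADAM12, RIN2, RFC5, CRABP2, ITGB3 and ITGB5. A further probe set passed 2-fold in the same direction for FEN1 (-1.24) and for FYN (1.09).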

How the data were processed

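RNA of U373 cells was measured on Affymetrix U95Av2 arrays, 6 arrays in 6 groups of 1. The values are signal intensities on a linear scale, made by the authors with MAS5, per the submitters' processing notes; its version is not given in the sources used here. All 6 arrays had been scaled to the same trimmed mean (2% trimmed at each end). From these, the 67 control probe sets were set aside, each array was floored at its 40th percentile of the other 12558, and log2 differences were taken. Each gene was read from its brightest probe set over the 6 arrays. Of the probe sets, 10943 had 1 gene symbol, 545 several and 1070 none; 10934 symbols were updated through RefSeq on GRCh38.p14. Genes named were the 20 with the largest differences each way, up to 6 of each list (all where 12 or fewer were measured, and others with small differences to give the range), the probe sets of SYK, RXRA and RXRB, and the 10 farthest from day 1. The members and lists were chosen with earlier results of these data known. With 1 array a side no test was run, and the number of arrays limits the precision. The steps were tested on simulated data with known differences. Alternatives were other floors, a pseudocount of 16, quantile normalization, other probe set rules and other comparison arrays. Python 3.11.15, pandas 2.3.3, numpy 2.4.6 and matplotlib 3.10.9 were used.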

Additional observations from a re-analysis of the deposited data

Results flagged for a closer look

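In 3 genes the PonA and untreated arrays differed by 2-fold or more in opposite directions at the 2 days; each rests on 1 array a side, and the difference between the days was not tested. PSMA7, a proteasome subunit, had a log2 difference of -2.14 at day 2 and 2.17 at day 1. RAPGEF3, an exchange factor that cyclic AMP activates, had 2.10 at day 2 and -1.10 at day 1. C9, a complement component, had -1.19 at day 2, with 31.1 in PonA-treated and 70.7 in untreated cells, and 1.06 at day 1, with 78.1 and 37.3. No group holds more than 1 array, so no array could be compared with others of its own group.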

How the results depend on the processing

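With the floor at the 20th percentile, 669 probe sets were higher and 668 lower by 2-fold, and as genes 421 and 416. With the floor at the 60th percentile 231 probe sets were higher and 171 lower, and 130 genes lower. With the ethanol array of day 1 in place of the untreated array of day 2, an alternative added after seeing the data, the mitotic median was -1.30, 10 replication genes were 2-fold lower, and EVX1 and C9 changed sign, to 0.14 and 0.20; the cause was not tested. That setting kept 149 of the 264 higher and 112 of the 221 lower genes past 2-fold, and the untreated array of day 1, also added later, kept 170 and 146. Quantile normalization kept 237 and 216, and a pseudocount of 16 kept 205 and 158. Over all lists and alternatives together, 663 medians moved by less than 0.49, the SD between probe sets of a gene, and 17 by more. That SD belongs to single probe sets and is larger than many of the medians. A small median could therefore change sign and still count among the 663, as the proteasome median did with the ethanol array of day 1. For the genes named, 389 values moved by less than that, 87 by more, and the 2 above turned. No paired analysis was possible because each group has 1 array. Signals near the floor limit what a difference can show: 32 of the higher and 35 of the lower genes are bounds.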
